A study of Rattus norvegicus with 12 samples.

Results

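Interferon-stimulated genes are the genes that cells switch on when interferon binds its receptors. The module studied here holds 42 of them, chosen by gene symbol from the list of genes commonly used to read out an interferon response, with no threshold on a measured value. Each of the 42 had 1 row in each of the authors' 3 full tables, of 23144 genes listed in the series, and all 42 passed the filter on low values in every comparison. The 12 libraries of rat joint RNA fall into 3 groups of 4, called sham, model and treatment in their titles. From the name of the series, which speaks of osteoarthritis of the knee and of acupuncture at points around it, the model group is read as osteoarthritic joints and the treatment group as treated ones. Strain, age, sex, the way the model was made, the dose and timing of treatment, and what the sham joints received are not stated in the labels. The labels also do not say that the libraries of a group came from separate animals, and p-values therefore cover only the variation among these 12 samples, some of which may be technical.

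Type I and type III interferons act through the receptor-bound kinases Jak1 and Tyk2 on a complex that holds Stat2 and Irf9 and binds the interferon-stimulated response element (ISRE) in promoters. Interferon gamma acts mainly at another element, the gamma-activated site (GAS). The genes induced fall into antiviral effectors, sensors of foreign nucleic acid, transcription factors that extend the response, enzymes of ubiquitin, ISG15 and ADP-ribose transfer, and genes of peptide processing for MHC class I. In joints, synovial macrophages, fibroblasts and blood-forming cells of the adjoining bone marrow can all make these transcripts.

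Libraries held 15513116 to 17218402 reads assigned to genes. Joint connective tissue was present in every library, with 10 fibroblast markers summing to at least 7907 CPM (reads scaled to the library total) and 9 chondrocyte markers to at least 1098 CPM. The libraries differed widely in other tissues. The 18 neutrophil markers summed to 17094 to 28781 CPM in sham, 4513 to 16871 in model and 207 to 634 in treatment, and the 18 erythroid markers to 37136 to 58262, 45221 to 75443 and 373 to 4255. In treatment the neutrophil sum rested largely on Mmp9, with 20565 reads over the 4 libraries, against 1363 for S100a9, the next. In treatment 4, the neutrophil genes Elane and Ctsg and the red cell gene Rhag were at 0 reads. The 13 skeletal muscle markers ranged from 1588 to 34936 CPM in sham, from 69.9 to 840 in model and from 113 to 47115 in treatment, with sham 2, sham 4 and treatment 2 the richest. In bulk RNA, fewer cells of a type and less RNA per cell cannot be told apart.

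Compared per length as RPKM (CPM divided by the authors' gene length in kilobases, group means), the members spanned a wide range of levels. In sham joints the highest were Ifi27, a small mitochondrial protein, at 89.0, Psmb8, a catalytic subunit of the immunoproteasome, at 85.3, and Rsad2 and Bst2, both at 71.1. Rsad2 encodes viperin, which makes a chain-terminating nucleotide, and Bst2 encodes tetherin, which holds budding virus at the cell surface. Irf9 was the lowest, at 0.505 RPKM in sham, 0.568 in model and 0.169 in treatment, with 0 reads in treatment 2. In treatment joints Ifi27 stood at 172 RPKM and Bst2 at 63.8, while Rsad2 stood at 1.44.

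The comparison of model with sham asks whether osteoarthritic joints carried more of these transcripts. None of the 42 members passed the test, which called 0 of 20205 genes (0%). Differences are given as log2 fold changes on the log2(value + 1) scale ± the SE of the limma fit, with 4 libraries per group, and a gene is called at a Benjamini-Hochberg adjusted p under 0.05 over all genes tested. The smallest adjusted p of a member by limma was 0.203, edgeR called 0 members, and DESeq2 called 9, all higher in model, where it called 1.45% of 17639 genes higher and 1.95% lower. At an unadjusted p under 0.05, 16 members were higher in model, against 5.9% of all genes, and 2 were lower, against 7.06%. The model and sham ranges did not overlap for 13 members, all higher in model, against 3.08% of all genes, and 0 members were without overlap in the other direction, against 4.77%. The members' median log2 fold change was 0.41 and that of all genes tested 0.03.

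Dtx3l had the smallest p of the members in that comparison. It encodes an E3 ubiquitin ligase that, in human cells, works in a complex with the ADP-ribosyltransferase Parp9. Dtx3l stood at 20.9, 24.8, 31.0 and 23.1 CPM in sham 1 to 4, at 52.0, 55.7, 46.3 and 58.6 CPM in model 1 to 4, and at 17.1, 24.3, 24.6 and 28.5 CPM in treatment 1 to 4. Every model library lay above every sham and every treatment library, and the sham and treatment ranges overlapped. The log2 difference of model from sham was 1.11 ± 0.16 (unadjusted p = 5.02e-05, adjusted p = 0.203). It passed the adjusted threshold when model 1 or sham 3 was left out, and not when any other library was.

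Parp9 is the neighbour of Dtx3l on chromosome 11. In the authors' gene models (mRatBN7.2), Parp9 on the minus strand (chr11:64780981-64815455) and Dtx3l on the plus strand (chr11:64814926-64824538) overlap by 530 bases. Whether counting used strand is not known from the labels, and reads in the overlap could belong to either gene. Parp9 stood at 47.3, 44.3, 66.7 and 43.3 CPM in sham, at 78.0, 87.6, 71.8 and 92.3 CPM in model and at 32.4, 49.7, 49.7 and 55.9 CPM in treatment. Its model libraries also lay above all others. The log2 difference of model from sham was 0.74 ± 0.16, and Parp14, a mono-ADP-ribosyltransferase on the same chromosome, differed by 0.65 ± 0.12.

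The other members that the comparison ranked highest were Herc6, Ifi44l and Ddx60, each with an adjusted p of 0.203 by limma. Herc6, the main ligase for ISG15 in mice, stood at 8.18, 8.62, 12.7 and 12.9 CPM in sham and at 23.3, 32.5, 25.2 and 19.7 CPM in model, a log2 difference of 1.27 ± 0.24. Ifi44l, an interferon-induced protein related to Ifi44, stood at 7.68, 3.11, 4.58 and 5.45 CPM in sham and at 13.7, 10.98, 14.2 and 14.5 CPM in model, a log2 difference of 1.43 ± 0.27. In both genes the lowest model library lay above the highest sham library. Ddx60, a helicase linked to RNA sensing, differed by 0.99 ± 0.21. By role, members at an unadjusted p under 0.05 and higher in model were 6 of 9 ubiquitin and ADP-ribose enzymes, 3 of 5 sensors, 4 of 15 effectors, 1 of 4 transcription factors, 1 of the 5 genes of peptide processing and guanylate binding, and 1 of the 4 others. Psmb8 and Psmb9, subunits of the immunoproteasome, were the members lower at that level, with log2 differences of -0.39 ± 0.14 and -0.47 ± 0.18.

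Skeletal muscle and neutrophil transcripts moved with this comparison. The highest model library was below the lowest sham library for the 13 muscle markers summed (840 against 1588 CPM) and for the 18 neutrophil markers summed (16871 against 17094 CPM). With the muscle score as a covariate, 4 members were higher in model at an unadjusted p under 0.05, against 2.23% of genes in that fit. Without sham 2 and sham 4 there were 11, against 3.48% of genes. The 10 fibroblast markers had a median log2 difference of 1.04 and the 9 endothelial markers one of 0.95, with all of them above 0 and 0 called. The medians were 0.41 for 11 macrophage markers, 0.28 for 9 chondrocyte markers and 0.16 for 18 erythroid markers. On the muscle score, in log2 CPM centred per gene, the highest model library (-0.51) lay below the lowest sham library (0.55). Muscle content and model therefore cannot be told apart, with the muscle covariate or without sham 2 and sham 4. The part of these cell types in the members' differences was not tested.

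**Figure D1:**
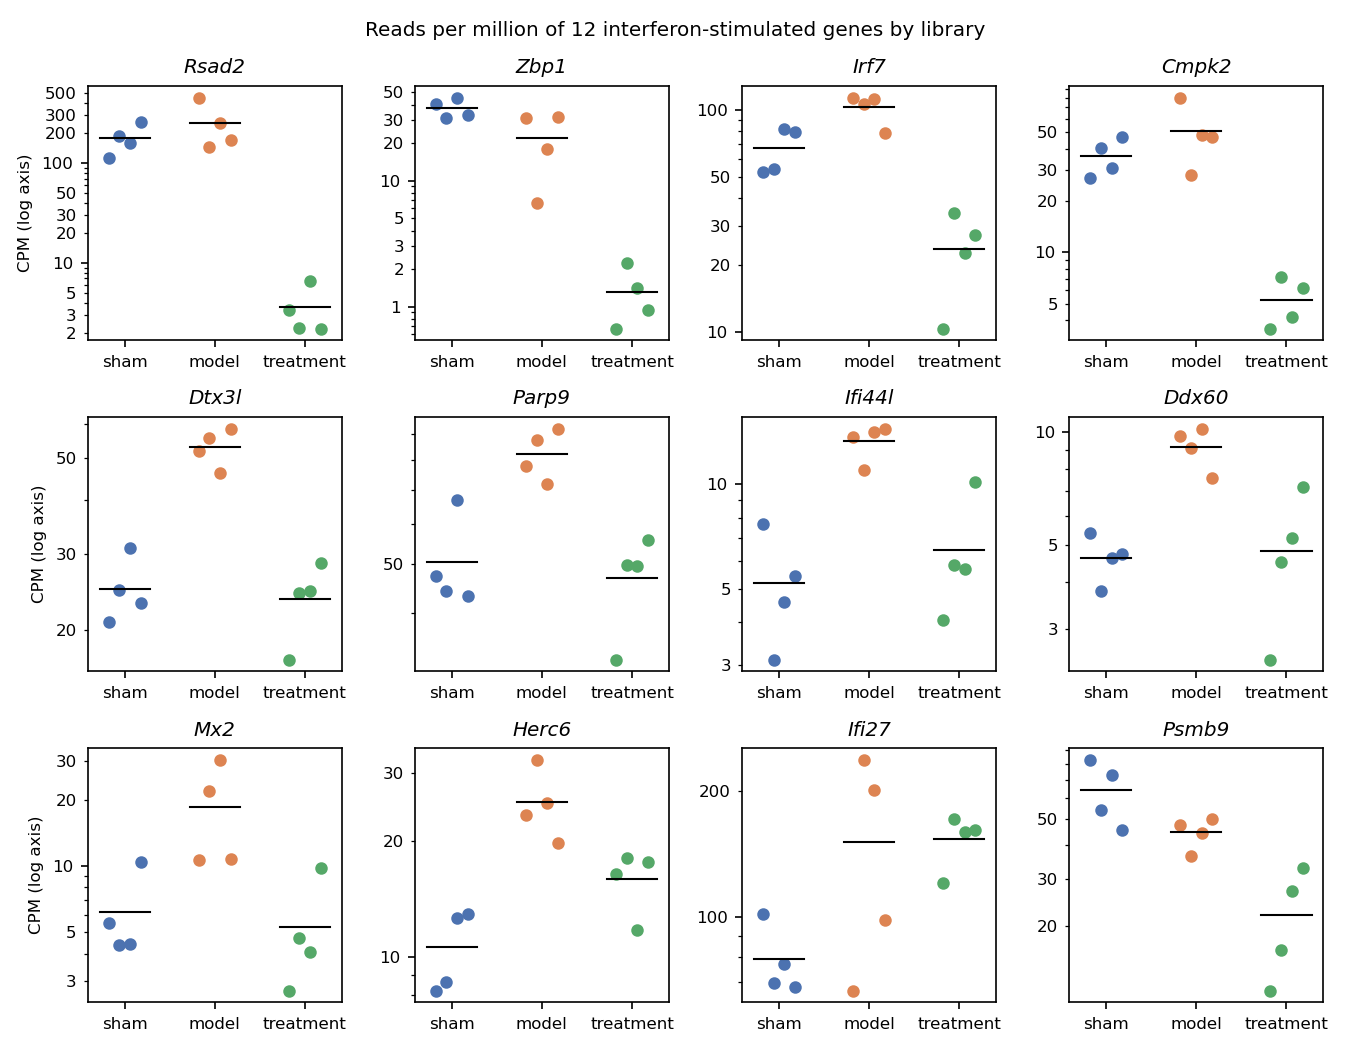
CPM (log axes) of 12 members in the 12 libraries, each point a library and each line the mean of 4 libraries. Dtx3l, Parp9, Ifi44l and Ddx60 stand highest in model and lie at overlapping levels in sham and treatment, Rsad2, Cmpk2, Zbp1 and Irf7 lie far lower in treatment, and Ifi27 lies above every sham library in treatment.

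Promoters of the members were read for the 2 elements that interferons act through. RefSeq promoters (assembly GRCr8, 250 bases before to 50 after the annotated start) were matched by symbol for 33 of the 42 members, and Dhx58, Ifit1, Ifit2, Mx2, Oas2, Parp10, Rtp4, Usp18 and Zbp1 had no match. The ISRE core, GAAA followed by any 2 bases and GAAA again, searched on both strands, was found in 22 of 33 member promoters (66.7%) and in 1312 of 33469 promoters of the same length (3.92%). The GAS letters, TTC and GAA with any 3 bases between them, were found in 7 of 33 (21.2%) and in 2970 of all promoters (8.87%). A match is a description of the letters in this window and no measure of binding. The promoter of Dtx3l is shown because this gene leads the comparison of model with sham, with its ISRE match in capitals, which starts 10 bases after the annotated start (chr11:78319975-78320274, plus strand).
Dtx3l: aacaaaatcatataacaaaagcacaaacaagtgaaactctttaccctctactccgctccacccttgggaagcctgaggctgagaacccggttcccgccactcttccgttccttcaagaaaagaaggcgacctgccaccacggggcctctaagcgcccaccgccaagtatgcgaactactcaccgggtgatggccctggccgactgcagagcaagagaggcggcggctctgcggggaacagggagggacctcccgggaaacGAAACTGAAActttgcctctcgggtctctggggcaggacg

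Stretches of 80 bases around the ISRE matches are shown for other members whose values are described here, since they share the letters at different distances from the start. Matches are in capitals, and on the other strand the core reads TTTC, 2 bases and TTTC. Parp14 (chr11:78408023-78408102, plus strand), Ifi44l (chr2:243328613-243328692, plus strand), Ddx60 (chr16:33208851-33208930, minus strand), Irf7 (chr1:205800048-205800127, minus strand), Eif2ak2 (chr6:21941103-21941182, plus strand) and Rsad2 (chr6:48788223-48788302, minus strand) are given 5′ to 3′ on the strand of the gene. Ifi44l and Ddx60 each hold 2 matches, and in Irf7 and Rsad2 the match lies on the other strand with the same letters. The matched promoters without an ISRE match were those of Parp9, Mx1, Cmpk2, Helz2, Herc6, Trim25, Oasl, Psmb9, Irf1, Irf9 and Stat2.
Parp14: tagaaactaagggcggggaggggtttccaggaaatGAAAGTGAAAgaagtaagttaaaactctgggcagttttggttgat
Ifi44l: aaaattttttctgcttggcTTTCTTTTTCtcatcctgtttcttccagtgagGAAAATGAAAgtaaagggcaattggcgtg
Ddx60: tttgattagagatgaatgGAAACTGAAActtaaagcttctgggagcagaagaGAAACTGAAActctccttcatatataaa
Irf7: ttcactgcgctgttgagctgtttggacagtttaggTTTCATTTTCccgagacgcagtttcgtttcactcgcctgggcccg
Eif2ak2: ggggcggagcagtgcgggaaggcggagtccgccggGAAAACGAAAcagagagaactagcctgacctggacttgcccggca
Rsad2: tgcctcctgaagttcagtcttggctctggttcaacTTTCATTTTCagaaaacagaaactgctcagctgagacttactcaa

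The comparison of treatment with model asks what treated joints carried relative to osteoarthritic joints. Of the 42 members, 19 fell and 0 rose, against 10.5% of the 20328 genes tested that fell and 3.6% that rose. Members below 0 numbered 40 of 42, and for 26 members every treatment library lay below every model library, against 13.7% of all genes, with 0 members the other way, against 8.51%. The members' median log2 fold change was -0.76 and that of all genes tested 0.02. The falls covered 11 of 15 effectors, 4 of 9 ubiquitin and ADP-ribose enzymes, 2 of the 4 other members, 1 of 5 sensors and 1 of 4 transcription factors, with none among the 5 genes of peptide processing and guanylate binding.

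Rsad2 fell furthest. It stood at 112, 186, 157 and 260 CPM in sham, at 453, 144, 251 and 169 CPM in model and at 3.39, 2.26, 6.62 and 2.19 CPM in treatment. The sham and model libraries overlapped, and the highest treatment library was far below the lowest of either. The log2 fold change of treatment from model was -5.95 ± 0.45 (adjusted p = 0.000944 by limma).

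Cmpk2, a mitochondrial nucleotide kinase whose gene lies 14096 bases from Rsad2 on chromosome 6, fell by 3.05 ± 0.36. It stood at 27.0, 40.5, 30.9 and 47.0 CPM in sham, at 79.9, 28.1, 48.6 and 46.8 CPM in model and at 3.57, 7.2, 4.18 and 6.21 CPM in treatment. The order of the libraries in model was like that of Rsad2 at its top, with model 1 highest and model 2 lowest in both genes.

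Among the Ifit genes, whose proteins bind foreign RNA, Ifit1 fell by 3.69 ± 0.49, Ifit3 by 2.08 ± 0.35 and Ifit2 by 0.55 ± 0.16. Ifit1 stood at 47.6, 68.8, 72.7 and 86.8 CPM in sham, at 144, 94.9, 87.3 and 38.8 CPM in model and at 3.45, 11.5, 4.18 and 6.15 CPM in treatment. Ifit2 in treatment ranged from 24.4 to 33.4 CPM, close to sham at 28.4 to 47.5 CPM, so neighbouring genes of 1 cluster on chromosome 1 differed widely in the size of their falls. The oligoadenylate synthetases, which make the activator of RNase L, were called in 2 of 3 cases, and Oas3 fell by 2.35 ± 0.66 and Oas1a fell by 1.51 ± 0.33. Their relatives Oasl and Oasl2 had log2 fold changes of -2.13 ± 0.56 and -1.34 ± 0.31. Oas2 did not pass the test (-1.86 ± 0.98). Reads of near-identical copies in the Oas, Oasl, Ifit, Mx and Gbp families may be split between them, so single values there are uncertain.

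Zbp1, a sensor of Z-form nucleic acid that can start necroptosis, fell by 3.75 ± 0.58 (adjusted p = 0.00489 by limma). It stood at 40.3, 31.2, 45.5 and 33.3 CPM in sham, at 31.4, 6.63, 17.9 and 31.9 CPM in model and at 0.665, 2.20, 1.39 and 0.947 CPM in treatment. Model 2 was the low library of its group, and the treatment libraries lay below all others. The other sensors did not pass the test: Ifih1 (MDA5) differed by -0.43 ± 0.13, Eif2ak2 (the RNA-dependent kinase PKR) by -0.51 ± 0.17, Dhx58 (LGP2) by -0.61 ± 0.36 and Ddx60 by -0.84 ± 0.32.

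Irf7, the factor that drives interferon alpha genes, fell by 2.06 ± 0.35 (adjusted p = 0.00736 by limma). It stood at 52.3, 54.2, 82.1 and 79.1 CPM in sham, at 113, 106, 112 and 78.2 CPM in model and at 10.3, 34.4, 22.8 and 27.3 CPM in treatment. The treatment libraries lay below all others, while model 4 lay within the sham range. Irf1, Irf9 and Stat2, a partner of Irf9, differed by -0.57 ± 0.23, -1.92 ± 0.77 and -0.47 ± 0.20 and did not pass the test.

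Smaller falls were those of Mx2, a dynamin-like antiviral GTPase, by 1.64 ± 0.46, of Xaf1, an antagonist of the apoptosis inhibitor XIAP, by 1.04 ± 0.22, of Dtx3l by 1.03 ± 0.17, and of Ifi44l by 0.95 ± 0.27. Parp10, a mono-ADP-ribosyltransferase, fell by 0.81 ± 0.21, Helz2, a helicase and transcription coactivator, by 0.79 ± 0.16, Trim25, a ubiquitin ligase of the RIG-I pathway, by 0.72 ± 0.21, and Parp9 by 0.67 ± 0.18. Members that differed little included Parp12 at -0.03 ± 0.22, Gbp2 at -0.02 ± 0.23 and Gbp4 at -0.06 ± 0.37. Ifi27 and Ifi44 were the members above 0, at 0.35 ± 0.39 and 0.16 ± 0.29. In every fit that left out 1 library, 8 members were called: Rsad2, Cmpk2, Ifit1, Ifit3, Zbp1, Irf7, Dtx3l and Helz2. The share of all genes called in every such fit was not counted. The count was 8 without model 4, against 5.34% of all genes called lower, 9 without model 3 (7.11%) and 10 without model 1 (6.79%). It was 12 without treatment 1 (7.43%), 12 without treatment 2 (9.21%) and 11 without treatment 3 (6.85%). With every library kept, 10.5% of all genes were called lower.

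Against these falls stand the marker lists of marrow cells. From model to treatment 16 of 18 neutrophil markers fell, with a median of -7.13, 18 of 18 erythroid markers fell, with a median of -6.40, and 10 of 11 B cell markers fell, with a median of -4.28. T and NK cell markers had a median of -1.21, with 2 of 11 called lower, and endothelial markers one of 0.10, with 0 of 9 called. Markers of several other tissues lay the other way. Skeletal muscle markers had a median of 3.75, with 13 of 13 above 0 and 0 called, fibroblast markers had 1.52, with 3 of 10 called higher, chondrocyte markers had 1.12, with 1 of 9 called higher, and macrophage markers had 0.65, with 0 of 11 called. The 7 markers of plasmacytoid dendritic cells, a main source of interferon alpha, summed to 197 to 264 CPM in sham, 146 to 247 in model and 71.5 to 91.6 in treatment. In sham and model that sum rests largely on Spib, with 8258 and 6703 reads over the 4 libraries of each group. In treatment Spib had 109 reads, and the sum rests largely on Tcf4 and Il3ra, with 3084 and 1925. The list's median from model to treatment was -0.41, with 1 of 7 called lower. Siglech went from 199 to 90 and 15 reads over sham, model and treatment, and Tcf4 from 1481 to 2401 and 3084. On the marrow score described below, every treatment library lay below every other library, so treatment and marrow content cannot be told apart between groups. For a covariate, a score of the same lists was computed in log2(value + 1) over the 8 libraries of the comparison. With it, 0 members and 0 of 20328 genes were called. In that fit the log2 fold changes kept their sign with wide errors in Rsad2 (-3.76 ± 1.30), Mx2 (-3.96 ± 1.29), Ifit1 (-2.91 ± 1.63) and Dtx3l (-1.12 ± 0.58), while Zbp1 was at -0.02 ± 1.37 and Oas1a at 0.05 ± 0.94.

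**Figure D2:**
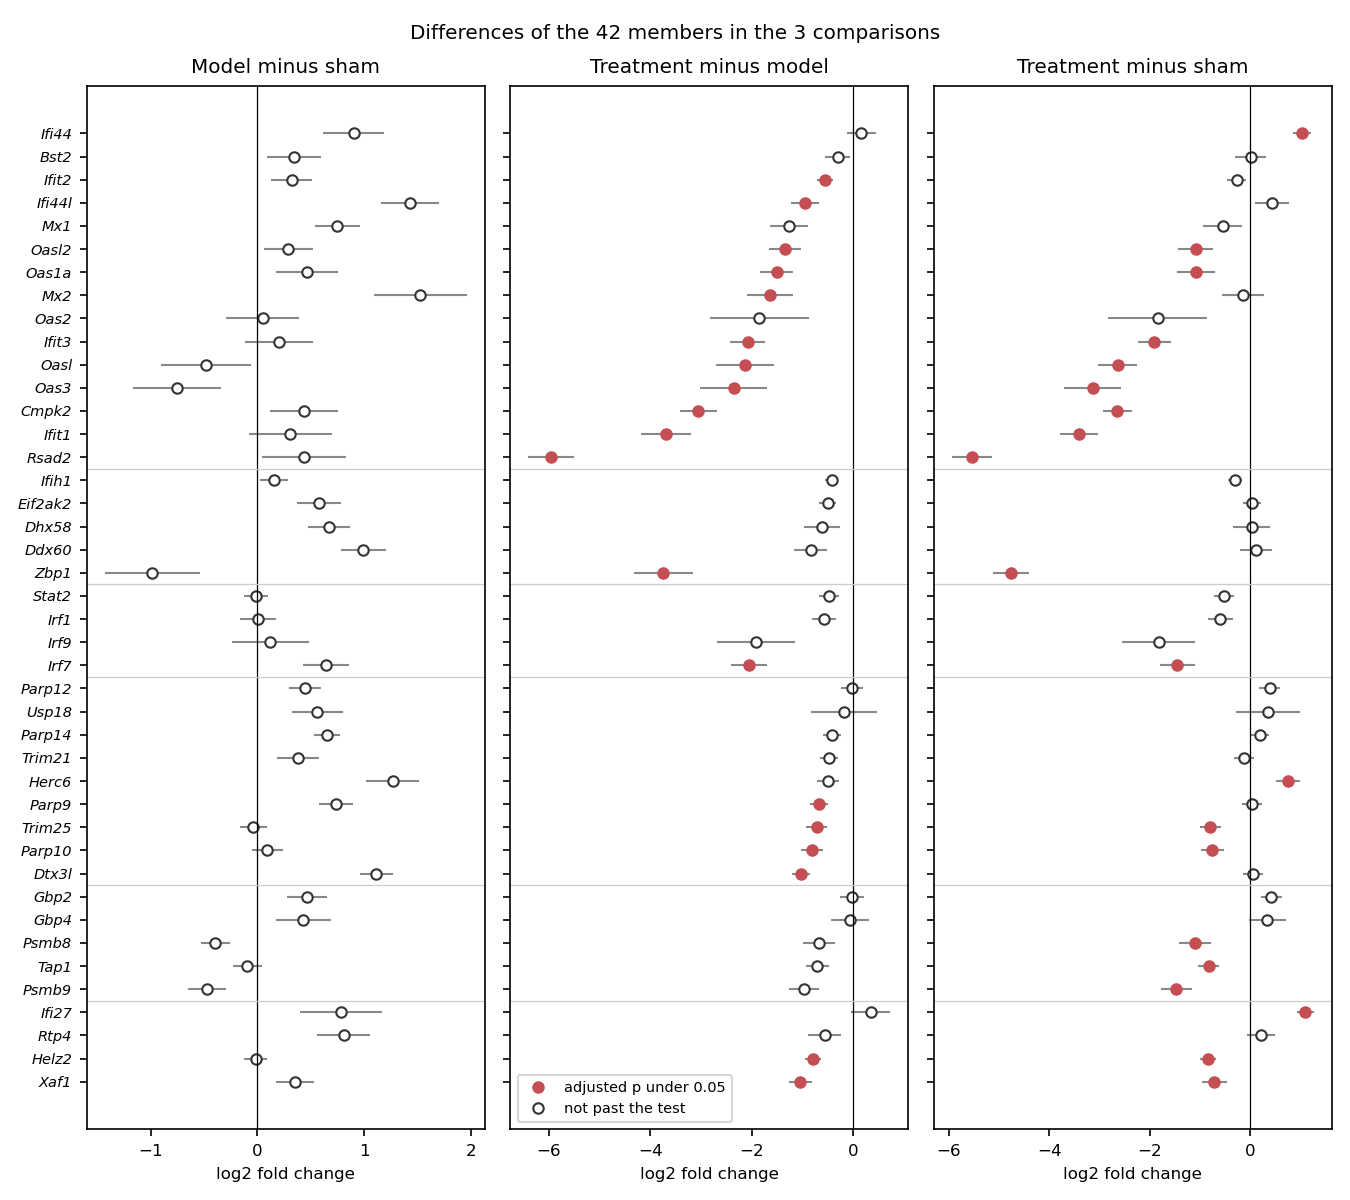
Log2 fold changes of the 42 members in the 3 comparisons, grouped by role (effectors at the top, then sensors, transcription factors, ubiquitin and ADP-ribose enzymes, peptide processing and guanylate-binding genes, and others), with bars for the SE of the limma fit and filled points for an adjusted p under 0.05. No member is filled for model minus sham, 19 are filled below 0 for treatment minus model, and 17 below and 3 above 0 for treatment minus sham.

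The comparison of treatment with sham asks how treated joints stood relative to joints without the model. Here 17 members fell and 3 rose, against 19.5% and 17.3% of the 20352 genes tested. At an unadjusted p under 0.05, 20 members were lower, against 23.8% of all genes, and 3 higher, against 22%, and the groups did not overlap for 17 lower members, against 19.8%, and 2 higher ones, against 16.9%. The members' median log2 fold change was -0.52 against -0.01 for all genes. The lowest were Rsad2 at -5.54 ± 0.40, Zbp1 at -4.76 ± 0.36, Ifit1 at -3.41 ± 0.38, Oas3 at -3.13 ± 0.57, Cmpk2 at -2.64 ± 0.29 and Oasl at -2.64 ± 0.39. Ifit3 fell by 1.90 ± 0.33, Irf7 by 1.44 ± 0.35, Oasl2 by 1.08 ± 0.35, Oas1a by 1.07 ± 0.37, Helz2 by 0.83 ± 0.16, Trim25 by 0.79 ± 0.22, Parp10 by 0.75 ± 0.23 and Xaf1 by 0.71 ± 0.25.

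Genes of peptide processing were called in this comparison. Psmb9 stood at 83.0, 54.1, 73.0 and 45.6 CPM in sham, at 47.7, 36.5, 44.4 and 49.8 CPM in model and at 11.5, 16.4, 27.1 and 33.0 CPM in treatment. Its treatment libraries lay below all sham and model libraries, and it fell from sham to treatment by 1.46 ± 0.31. Psmb8 fell by 1.10 ± 0.31 and Tap1, a subunit of the transporter that loads peptides for MHC class I, by 0.82 ± 0.21. Tap1 and Psmb9 overlap by 856 bases on opposite strands of chromosome 20, so some of their reads cannot be assigned with certainty. The guanylate-binding proteins Gbp2 and Gbp4, GTPases that act on intracellular pathogens, differed by 0.42 ± 0.21 and 0.35 ± 0.36 and did not pass the test.

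The 3 members that rose from sham to treatment were Ifi27, Ifi44 and Herc6. Ifi27 stood at 101, 69.7, 77.4 and 68.0 CPM in sham, at 66.6, 237, 201 and 98.5 CPM in model and at 120, 171, 159 and 161 CPM in treatment, and rose by 1.11 ± 0.17 (adjusted p = 0.000939 by limma). The model libraries spread over the whole range of both other groups. Ifi44 rose by 1.04 ± 0.18, from 12.3 to 16.1 CPM in sham to 21.7 to 31.1 CPM in treatment. Herc6 rose by 0.75 ± 0.24, with 16.4, 18.1, 11.8 and 17.6 CPM in treatment, where treatment 3 lay within the sham range, and its adjusted p ranged from 0.0273 to 0.0967 when 1 library was left out. Dtx3l at 0.06 ± 0.19 and Parp9 at 0.04 ± 0.20 did not pass the test, and both signs turned under scaling to library totals, to -0.09 and -0.11. In every fit that left out 1 library, 13 members were called. Single fits of that kind called 29.1% to 38.6% of all genes, and the share called in every one was not counted. Over the same libraries, 9 of 10 fibroblast markers rose, with a median of 2.76, 6 of 9 endothelial markers rose, with a median of 0.99, and 5 of 11 macrophage markers rose and 1 fell, with a median of 0.97. Neutrophil markers had a median of -8.12 and erythroid markers one of -6.40. The part of these cell types in the members' rises and falls was not tested.

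The module was also read for members that were high in model and lower in treatment, the course that Dtx3l takes. The comparisons of model with sham and of treatment with model share the 4 model libraries, so a high model group moves them in opposite directions, and their values are given side by side. By sign alone, 31 of 42 members lay above 0 from sham to model and below 0 from model to treatment, against 21.5% of 19785 genes in both fits. With an unadjusted p under 0.05 in both, 9 members met the course, against 0.42% of genes, and with an adjusted p under 0.05 in both, 0 members and 0 genes did. By the same unadjusted rule, edgeR gave 9 members and 0.42% of genes, and DESeq2 gave 10 members and 0.472% of genes.

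These 9 members were Dtx3l, Parp9, Parp14, Mx1, Mx2, Ifi44l, Ddx60, Eif2ak2 and Irf7. Dtx3l was the example from which the course was taken, so its own place among them is no test. Parp9 overlaps Dtx3l and may share some of its reads. Dtx3l differed by 1.11 from sham to model and by -1.03 from model to treatment, Parp9 by 0.74 and -0.67, and Ifi44l by 1.43 and -0.95. Mx1, a nuclear antiviral GTPase in rodents, differed by 0.75 ± 0.21 and -1.26 ± 0.38, Mx2 by 1.53 ± 0.43 and -1.64 ± 0.46, and Irf7 by 0.64 ± 0.22 and -2.06 ± 0.35. Parp14 differed by 0.65 and -0.42, Ddx60 by 0.99 and -0.84, and Eif2ak2 by 0.58 and -0.51. Irf7 ended below sham in treatment, while the differences of the other 8 from sham to treatment did not pass the test and ranged from -0.54 in Mx1 to 0.45 in Ifi44l.

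Mx2 varied widely within its groups. It stood at 5.53, 4.37, 4.45 and 10.5 CPM in sham, at 10.7, 21.9, 30.3 and 10.8 CPM in model and at 2.72, 4.70, 4.07 and 9.76 CPM in treatment. Sham 4 and treatment 4 came close to model 1 and model 4. Mx1 stood at 11.7, 13.5, 11.1 and 17.3 CPM in sham, at 19.9, 21.4, 27.3 and 20.3 CPM in model and at 3.57, 10.01, 8.42 and 14.8 CPM in treatment, with the model libraries above all others. When each library was left out in turn, Mx1, Mx2, Ifi44l, Irf7, Dtx3l and Parp9 met the course in every fit, and Ddx60, Eif2ak2 and Parp14 did not. With the muscle score as a covariate 4 members met it, against 1.08% of genes, and of these Dtx3l was among the 9. With the marrow score 1 did, Mx2, against 0.187% of genes.

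A second course was a called fall from model to treatment with an unadjusted p above 0.05 between model and sham. Rsad2, Cmpk2, Ifit1, Ifit2, Ifit3, Oas1a, Oas3, Oasl, Oasl2, Zbp1, Trim25, Parp10, Xaf1 and Helz2 took it, with model minus sham from -0.98 in Zbp1 to 0.46 in Oas1a, all at an unadjusted p above 0.05. Helz2 stood at 87.2, 70.7, 76.9 and 71.4 CPM in sham, at 75.3, 77.2, 75.6 and 71.1 CPM in model and at 28.5, 39.1, 40.5 and 49.3 CPM in treatment. Its sham and model libraries lay together and its treatment libraries apart and below. A p above 0.05 does not show that a difference is absent, and Zbp1 (-0.98 ± 0.44, unadjusted p = 0.054 by limma) came near it. The share of all genes on this second course was not counted, so the number of members on it cannot be set against a background.

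Marrow content was followed with a score, the mean of the neutrophil and erythroid lists in log2 CPM centred per gene. It was 2.24 to 2.61 in sham, 0.73 in model 2 and 1.98 to 2.80 in the other model libraries, and -4.47, -3.29, -3.77 and -6.14 in treatment 1 to 4. To ask which members follow it within groups, each gene was fitted over the 12 libraries with group and score as terms. No member had a slope past the test, which called 33 of 19616 genes (0.168%), all positive. At an unadjusted p under 0.05, 1 member had a positive slope, against 3.01% of genes, and 2 a negative one, against 5.15%. Slopes above 0 were found in 12 of 42 members, with a median slope of -0.09 log2 CPM per unit of score, against -0.04 for all genes. The lists that make up the score had medians of 1.19 (neutrophil) and 0.93 (erythroid), as their place in the score fixes. Even so, the test called only 1 of 18 neutrophil and 10 of 18 erythroid genes. A member that follows marrow content could therefore go uncalled, and the 0 members called do not show that members are free of it.

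Zbp1 had the highest slope of the members, 0.62 ± 0.18 (unadjusted p = 0.00504, adjusted p = 0.435 by limma). Its low value in model 2, the model library poorest in marrow transcripts, goes with that slope. Without treatment 4 its slope was 1.16 with an adjusted p of 0.0108, the 1 member called in that fit, which called 228 genes. Without model 2 its slope was 0.39, and over the 12 fits without 1 library the slope ranged from 0.39 to 1.16 with adjusted p from 0.0108 to 0.878. Rsad2 had a slope of 0.35 ± 0.20 and Cmpk2 one of 0.21 ± 0.16. Slopes below 0 at an unadjusted p under 0.05 were those of Mx2, -0.46 ± 0.21, and Gbp2, -0.24 ± 0.10, and the next by p were Ifi44 at -0.23 ± 0.13 and Rtp4, a chaperone of receptors induced by interferon, at -0.24 ± 0.14. Dtx3l had a slope of -0.04 ± 0.10 and Parp9 one of -0.04 ± 0.11, so neither moved with the score beyond its error.

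**Figure D3:**
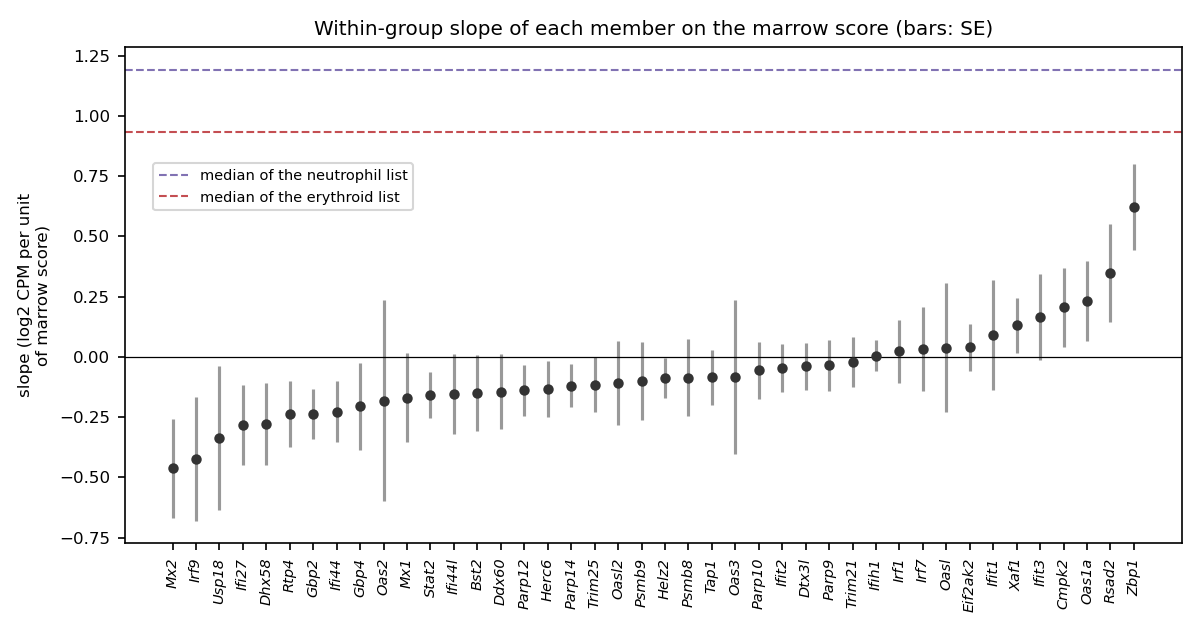
Slope of each member on the marrow score within groups (log2 CPM per unit of score), with bars for the SE, from a fit over 12 libraries. The 42 members lie between -0.46 in Mx2 and 0.62 in Zbp1, all below the medians of the erythroid list (0.93) and the neutrophil list (1.19), drawn as dashed lines.

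Within the treatment group the members shared an order, set here beside the marrow score and the summed markers. Treatment 1 was the lowest library of its group for 37 of 42 members, against 25.5% of 15439 genes with a mean of at least 1 CPM, and treatment 4 was the highest for 29 of 42, against 35% of those genes. Treatment 4 had the lowest marrow score of all. In treatment 1 to 4, erythroid markers summed to 4255, 2369, 1848 and 373 CPM and neutrophil markers to 634, 258, 207 and 540 CPM. Over the treatment libraries the neutrophil sum rested largely on Mmp9. The mean of the neutrophil list in log2 CPM centred per gene was -4.71, -3.36, -4.31 and -6.32, lowest in treatment 4. Fibroblast markers summed to 83877, 29684.5, 69073 and 39498 CPM and chondrocyte markers to 18957, 1592, 5519 and 3178 CPM. Macrophage markers summed to 1030, 893, 2355 and 2376 CPM. The part of these cell types in the order was not tested. The 5 members not lowest in treatment 1 were Rsad2, lowest in treatment 4, Oas1a and Herc6, lowest in treatment 3, and Irf9 and Trim25, lowest in treatment 2. Usp18, which removes ISG15 and dampens interferon receptor signalling, stood at 2.54, 10.9, 14.1 and 33.8 CPM in treatment 1 to 4, against 7.93 to 10.7 CPM in sham and 9.58 to 17.4 CPM in model. Members of a library share its depth and its scaling, so this order is a description over 4 libraries.

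**Figure D4:**
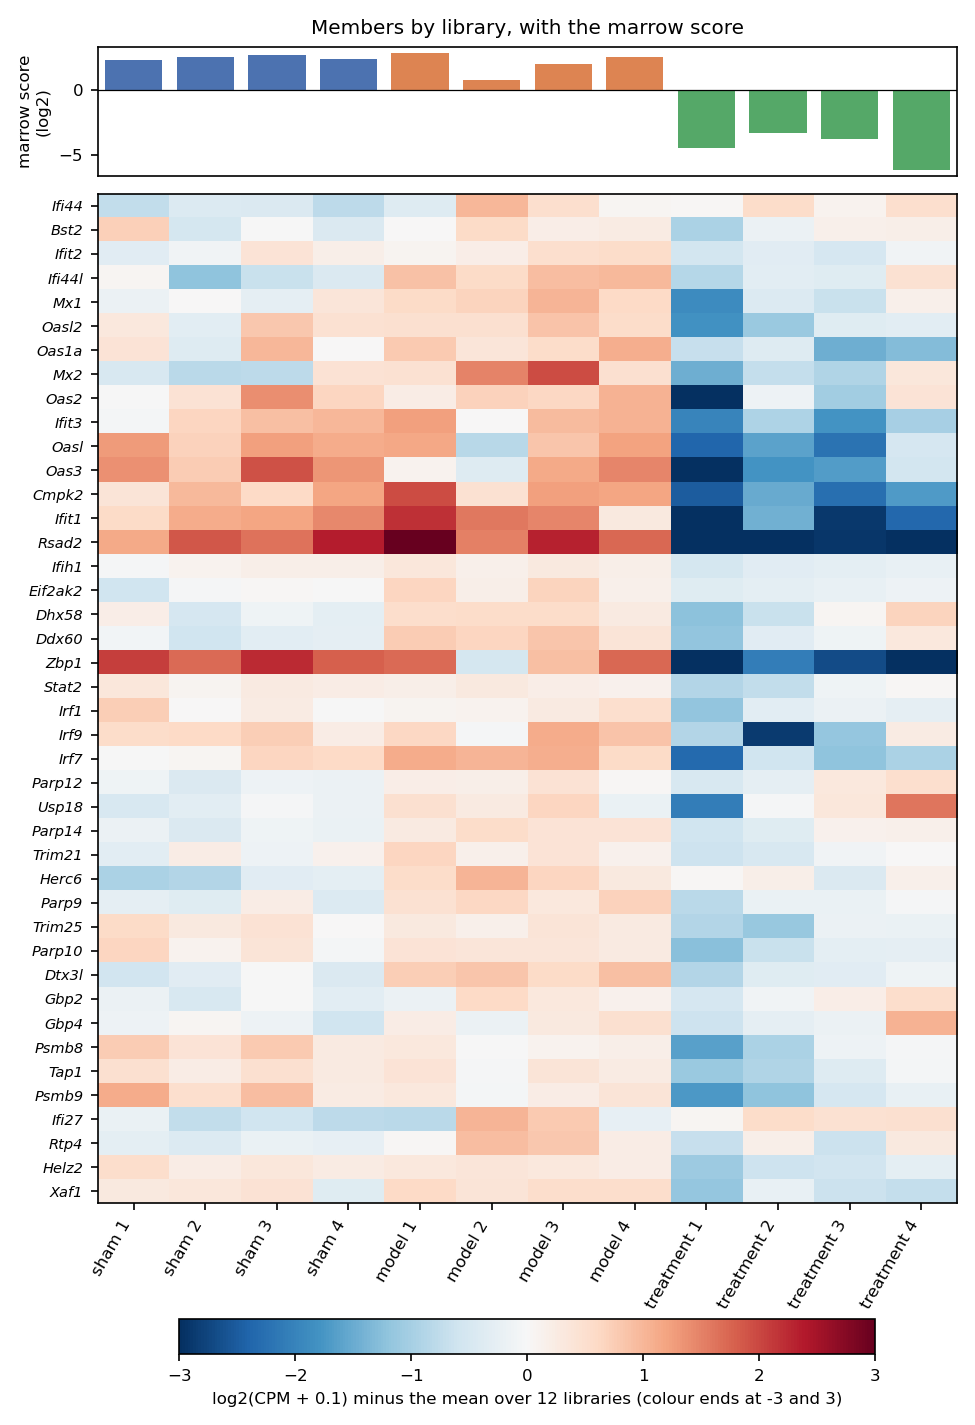
Level of each member in each library, as log2(CPM + 0.1) minus its mean over the 12 libraries, with bars of the marrow score (log2) above. Rsad2, Zbp1, Ifit1 and Cmpk2 are low in the 4 treatment libraries, where the score is -3.29 or below. Among the treatment libraries most members are lowest in treatment 1, and the score is lowest in treatment 4, at -6.14.

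Other genes of the pathway, taken from 4 lists, were read in the same fits. From sham to model 0 of them were called. The interferons measured had few reads, with 2, 0 and 4 for Ifng, 0, 6 and 18 for Ifne, and 5, 0 and 1 for Ifnk over the 4 libraries of sham, model and treatment. The receptor chains Ifnar1, Ifnar2, Ifngr1 and Ifngr2 were well measured, at 147.7, 61.3, 127.7 and 45.3 CPM in sham and 179.8, 56.1, 135.2 and 46.1 CPM in treatment (group means), and none passed the test in any comparison. Ifnlr1, the receptor chain for interferon lambda, rose from sham to treatment by 2.81 ± 0.29, from a mean of 3.65 to 22.0 CPM, and its difference from model did not pass the test (1.70 ± 0.55, adjusted p = 0.0719 by limma).

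From model to treatment, 1 of 13 signalling genes rose and 1 fell, 1 of 15 nucleic acid sensing genes fell and 6 of 33 further interferon-stimulated genes fell, with 0 of 6 ligands and receptors called. Over all genes 3.6% rose and 10.5% fell. Socs3, a feedback inhibitor of cytokine receptors, rose by 1.89 ± 0.34, and Irf2, an antagonist of Irf1, fell by 0.75 ± 0.19. Adar, the RNA-editing enzyme, fell by 0.69 ± 0.15. The further genes that fell were Trim14 by 2.19 ± 0.37, Nlrc5, the activator of MHC class I genes, by 1.58 ± 0.30, Pml by 1.40 ± 0.28, Uba7, the activating enzyme for ISG15, by 1.26 ± 0.29, Tap2 by 0.80 ± 0.21 and Trim56 by 0.54 ± 0.15. From sham to treatment, 2 of 13 signalling genes rose and 4 fell, 1 of 15 sensing genes rose and 3 fell, and 3 of 33 further genes rose and 8 fell, where 17.3% of all genes rose and 19.5% fell. Among these, Socs3 rose by 2.69 ± 0.25, Ifitm3, which blocks viral entry, by 1.95 ± 0.40 and Tlr3, an endosomal RNA receptor, by 1.55 ± 0.23, while Irf8, a factor of myeloid and plasmacytoid dendritic cells, fell by 2.12 ± 0.45.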

How the data were processed

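The authors deposited 3 full tables, 1 per comparison, of normalised signal, in which a library's reads were scaled by a size factor of the table (found from the values). Per the submitters' processing notes, fastp and DESeq2 were used with the build mRatBN7.2. For the aligner, counter, annotation and strand setting, the name is not given in the sources used here. Per the labels' protocols, Trizol was used for extraction and libraries came from a VAHTS Universal V5 kit. The deposited log2 fold changes and p-values of the authors were not used. Whole reads were recovered from the steps of the deposited signal (100% of values whole at a tolerance of 0.001 reads, with 0 genes differing between tables) and gave the CPM.

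Each comparison was tested in its own table of 8 libraries with limma 3.58.1 in R 4.3.3 (trend, robust) on log2(value + 1). Genes needed a mean value of 1 or more, and p was adjusted by Benjamini-Hochberg over all genes tested. Fold changes on that scale understate the change of low genes. Slopes on the marrow score used log2 CPM (prior count 2, genes with a mean of at least 0.1 CPM). The scripts were tested on simulated data. As alternatives, edgeR 4.0.16 and DESeq2 1.42.0 on recovered reads, other pseudocounts, filters and scalings, muscle and marrow scores as covariates, a replicate block and leaving out each library were tried. Scores used as covariates were computed in log2(value + 1) over the 8 libraries of a comparison. edgeR called 0 genes between model and sham, 2452 between treatment and model and 7092 between treatment and sham.

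Members, lists and tests were chosen with earlier results of these data known. Named genes are the members past the test (where fewer than 5 pass, the 5 with the smallest p), Dtx3l and Parp9 throughout, and pathway genes past the test, of which a part is named. Per-library values of other members were chosen after they were seen. Genes of these lists without a matching symbol are not analysed here.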

Additional observations from a re-analysis of the deposited data

Results flagged for a closer look

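Over the 42 members and 3 groups, 126 sets of 4 libraries were looked at for a library far from the other 3, by the gap to its nearest neighbour as a share of the whole range of log2(CPM + 0.1), and 5 passed Dixon's critical value. Chance flags about 1 in 20 such sets. Eif2ak2 in sham 1 had a share of 0.917, with 34.2 CPM against 51.0 to 52.9 CPM in the other sham libraries. Dhx58 in model 4 had a share of 0.881, with 11.4 CPM against 13.6 to 13.9 CPM. Irf1 in treatment 1 had a share of 0.88, with 20.7 CPM against 38.4 to 41.8 CPM. Parp12 in sham 2 had a share of 0.832, with 17.1 CPM against 20.6 to 21.4 CPM. Irf7 in model 4 had a share of 0.83, with 78.2 CPM against 106 to 113 CPM. Each of the 5 was the lowest library of its group, and they fell in 4 libraries.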

How the results depend on the processing

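The counts of members called held within 1.5 times, and named members kept their direction, under both other pseudocounts, both other filters, edgeR and DESeq2, except that DESeq2 called 9 for model against sham. For treatment against model, the count of 19 became 10 with the replicate block, against 8.72% of all genes called lower. It became 12 without the muscle-rich libraries, against 9.21%, where the main fit called 10.5% of all genes lower. With the marrow score as a covariate it became 0, as did the count for treatment against sham, and the course of high in model and lower in treatment was met by 1 member (4 with the muscle score). Leaving out 1 library at a time gave 0 to 1 members for model against sham, 8 to 18 for treatment against model, 14 to 19 for treatment against sham, 6 to 10 for the course and 0 to 1 for the slope on the marrow score. Over these fits, 0% to 0.847% of all genes were called for model against sham and 29.1% to 38.6% for treatment against sham. For treatment against model 5.34% to 13.7% were called lower, and 0.254% to 0.823% met the course. The slope was called for 20 to 228 genes. Among members that had passed the test, signs turned with the marrow score as a covariate for Oas1a, treatment against model, at 0.0542. They also turned for Oas1a and Xaf1, treatment against sham, at 0.51 and 0.42. Ifi27 and Ifi44, not past the test for treatment against model, turned there to -0.85 ± 1.23 and -0.88 ± 0.90. Dtx3l, treatment against sham, turned to -0.0867 and Parp9, treatment against sham, to -0.11 under scaling to library totals, where neither had passed the test. In that comparison Parp9 turned to -0.16 without the muscle-rich libraries, and without 1 library Dtx3l ranged from -0.0365 (without sham 1) to 0.201 and Parp9 from -0.0194 to 0.199, below 0 without treatment 2, 3 or 4 or sham 1, 2 or 4. The causes were not tested. Scaling to library totals, added after seeing the data, moved the median of all genes to -0.14 in treatment against model and -0.16 in treatment against sham. The share of higher calls moved from 25.5% to 11.1% and from 47.1% to 37.8%. Under that scaling 24 and 21 members were called, against 15.1% and 36.2% of all genes. Whether replicate numbers pair the samples is not stated in the labels. Correlations of same-numbered libraries ran from -0.59 to 0.38 and cannot settle it, since differently numbered libraries were not set beside them. Under the block 0 members were called for model against sham and 17 for treatment against sham, 6 met the course and 0 had a slope past the test. Of all genes, the block called 0% and 33.3% in these comparisons, and 0.232% met the course. Members near 1 CPM, such as Irf9, are limited by depth.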
